A study of Mus musculus with 24 samples.

Results

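The matrix metalloproteinases (MMPs) and their tissue inhibitors (TIMPs) were followed as 10 genes, chosen by symbol from the 25385 genes measured in mouse marrow-derived mesenchymal stem cells: Mmp2, Mmp3, Mmp9, Mmp10, Mmp11, Mmp13, Mmp14, Timp1, Timp2 and Timp3. All 10 were listed in all 24 RNA-seq libraries. Of these, 9 passed the filter on low values and were tested, and Mmp9 did not. The strongest response to the vitamin D hormone was that of Mmp13, which rose 15.6-fold in undifferentiated cells, 6.21-fold and 2.33-fold in osteogenic cultures, and fell 1.53-fold in adipogenic cultures. Timp3 took the opposite direction in the differentiated cultures, with falls in osteogenic cells and a small rise in adipogenic cells.

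The cells are multipotent stromal cells from mouse marrow, obtained from another laboratory, stored frozen and used within 10 passages in MEM alpha medium with serum. Day 0 cells were undifferentiated. Osteogenic cultures were kept for 7 or 15 days in beta-glycerophosphate and ascorbic acid, and adipogenic cultures for 7 days in insulin, indomethacin and dexamethasone. Each of the 4 states had 3 libraries after 24 hours of 100 nM 1,25(OH)2D3 (VD3), the hormonal form of vitamin D, and 3 libraries after ethanol vehicle. Whether the 3 came from separate cultures is not in the labels, so the spread behind the p-values is that of these libraries and may be technical. Strain, sex and number of animals are not in the labels either.

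MMPs are zinc-dependent proteases that are made as inactive precursors and cut collagens and other matrix proteins once activated. TIMPs bind active MMPs and block them. In bone, osteoblast lineage cells make collagenase that takes part in remodelling of the collagen matrix, and the balance of MMPs and TIMPs is measured as protein activity, which RNA levels do not give. Mmp13 encodes collagenase-3, which cuts fibrillar collagens. Mmp3 and Mmp10 encode stromelysins, proteases of broad range, and Mmp2 and Mmp9 encode gelatinases. Mmp14 encodes a collagenase anchored in the plasma membrane that activates the Mmp2 precursor in a complex with Timp2, and Mmp11 encodes a secreted protease activated inside the cell by furin. Timp3, unlike Timp1 and Timp2, is held in the matrix and also inhibits several ADAM and ADAMTS proteases.

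Promoter sequences are shown for Mmp3, Mmp10 and Mmp13, because these are the only members of the 8 with a RefSeq promoter here in which the AP-1 letters TGANTCA were found. AP-1 dimers of Fos and Jun proteins are known regulators of collagenase and stromelysin genes. Each line holds the 100 bases before the RefSeq start on the plus strand of chromosome 9, in the build GRCm38.p6, which differs from the build of the deposited values. Capitals mark TGANTCA and the TATA box letters TATAAA.
Mmp3 (chr9:7445722-7445821): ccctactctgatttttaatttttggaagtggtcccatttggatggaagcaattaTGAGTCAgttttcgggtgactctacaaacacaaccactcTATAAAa
Mmp10 (chr9:7502242-7502341): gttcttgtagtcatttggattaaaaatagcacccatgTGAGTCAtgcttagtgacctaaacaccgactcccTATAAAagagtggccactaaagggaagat
Mmp13 (chr9:7272414-7272513): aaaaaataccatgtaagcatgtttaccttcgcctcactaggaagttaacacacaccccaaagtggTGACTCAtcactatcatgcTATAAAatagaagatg
The AP-1 letters began 46, 63 and 35 bases before the start in Mmp3, Mmp10 and Mmp13. Searched on both strands, they were in 7.81% of 32851 mouse promoters of the same 300 bases (250 before to 50 after the start). TATAAA on the gene's strand was in the same 3 members and in 8.32% of all promoters. It began 7, 29 and 16 bases before the start in Mmp3, Mmp10 and Mmp13. The RefSeq starts were not checked in these libraries, so all distances hold for those starts only. The RUNX letters ACCACA, on either strand, were in Mmp13 and Mmp14 and in 16.8% of all promoters. Searched on both strands, the vitamin D response element consensus was in 0 of the 8 members and 0.256% of all promoters, which says only that these letters were not in this window. Mmp2 and Mmp9 were not matched. All these matches are descriptions of the sequence and do not show that a factor binds.

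Levels are in RPKM (reads per kilobase of transcript, scaled to the number of mapped reads), given as mean ± SD over 3 libraries. Being per length they can be compared between genes, with a limit for genes summed over several transcripts, among the members Timp1. A log2 value is the difference between groups after taking log2(RPKM + 1), so a low gene shows less than its full change. A gene is said to have risen or fallen where limma's p, adjusted by Benjamini-Hochberg over 21097 genes, was below 0.05. Fold values are ratios of mean RPKM. Because bulk RNA was measured, fewer cells of a type and less RNA per cell cannot be told apart.

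Bone markers were highest in osteogenic cultures but were not limited to them. Ibsp, a bone matrix protein gene, was at 9.55 ± 0.51 RPKM in day 0 vehicle, 264 ± 11.9 and 596 ± 40.1 at osteogenic days 7 and 15, and 104 ± 7.89 in adipogenic vehicle, against 3.23 ± 0.40 in adipogenic VD3 (log2 -4.64, adjusted p = 1.98e-18). The osteoblast markers did not move together there. Of the 7 tested, VD3 raised 1 and lowered 2 in adipogenic cells (1.51% and 0.574% of all genes), with a median log2 difference of 0.060. The marker raised was Col1a1 (log2 0.98, limma adjusted p = 9.62e-05). Alpl, the gene of bone alkaline phosphatase, was at 17.3 ± 2.58 RPKM in adipogenic vehicle and 18.1 ± 2.92 at osteogenic day 7. Adipoq, an adipocyte hormone gene, was at 26.4 ± 1.29 in day 0 vehicle and 3032 ± 181 in adipogenic vehicle. Cyp24a1, a known target gene of VD3, went from 1.62 ± 0.66 to 13.0 ± 0.58 RPKM with VD3 at day 0 and was higher with VD3 in the other states too (19.8, 10.7 and 3.10 RPKM, against vehicle means of 0.109, 0.218 and 0.252). Depth estimated from the smallest steps in the values was 7.13 to 46.8 M reads. Of the libraries, 5 stood apart by a high background, read from 1497 receptor genes of smell and taste: the median of these genes was 3.39 to 4.93 RPKM in 5 of the 6 day 0 libraries and 0.208 to 1.30 in the other 19, including day 0 VD3 replicate 2 at 0.456. Of 14 macrophage and osteoclast markers, 12 were in the files. Their sum ranged from 72.5 to 77.5 RPKM in day 0 vehicle, 99.6 to 119 and 122 to 135 at osteogenic days 7 and 15, and 16.8 to 19.7 in adipogenic vehicle, and most of it was Ctsk (54.3, 103, 123 and 10.4 RPKM). Csf1r and Acp5 had group means of at most 0.758 and 0.467 RPKM. Other markers of the list were higher: Cd14 was at 3.66, 5.61, 4.13 and 0.951 RPKM in the 4 vehicle states, and Emr1 and Calcr were at 2.70 and 2.88 RPKM in day 0 vehicle. The receptor medians of the day 0 vehicle libraries were 3.51 to 4.93 RPKM. The Emr1 and Calcr means lay below that range and the day 0 Cd14 mean within it. With VD3, 1 of the 7 tested was called, Lyz2, which was lower in adipogenic cells (log2 -1.12, adjusted p = 0.046). The part of such cells in the results was not tested.

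**Figure D1:**
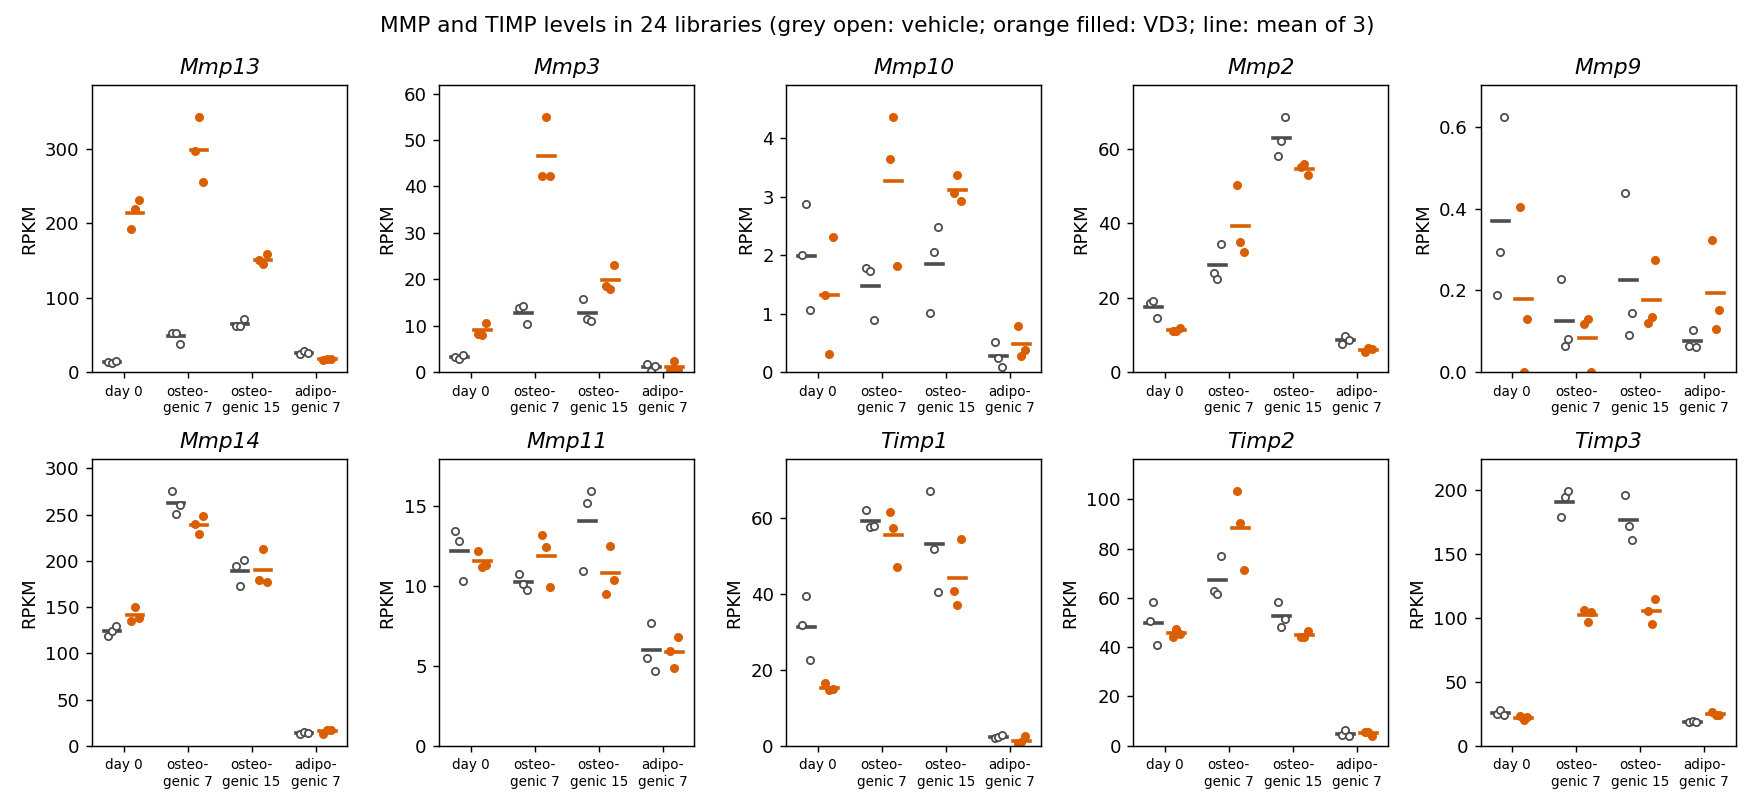
RPKM of the 10 genes (vertical axes, each starting at 0) in the 4 states (horizontal axes); open grey points are vehicle libraries, filled orange points VD3 libraries and lines the mean of 3. Mmp13 with VD3 stood above vehicle in every library at day 0 and in osteogenic medium and below it in adipogenic medium, while Mmp14, Timp1 and Timp2 were low in all 6 adipogenic libraries.

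Mmp13, the collagenase, was present in every state before treatment. Its vehicle levels were 13.6, 12.4 and 15.2 RPKM at day 0, 52.9, 52.9 and 38.2 at osteogenic day 7, and 62.1, 61.9 and 71.0 at osteogenic day 15. In adipogenic vehicle the libraries held 24.3, 27.9 and 26.2 RPKM. The order of the vehicle states was thus osteogenic day 15, osteogenic day 7, adipogenic day 7 and day 0, and no library of a state overlapped with those of the next.

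VD3 shifted Mmp13 far outside these ranges in 3 of the 4 states. In day 0 cells the VD3 libraries held 192, 219 and 231 RPKM, a log2 difference of 3.87 (SE 0.12, limma adjusted p = 2.03e-15). At osteogenic day 7 they held 296, 343 and 255 RPKM (log2 2.62, adjusted p = 2.44e-12), and at osteogenic day 15 they held 150, 145 and 159 RPKM (log2 1.21, adjusted p = 2.48e-06). Every VD3 library was above every vehicle library in these states. In adipogenic medium the direction turned: the VD3 libraries held 15.8, 17.5 and 18.0 RPKM, all below the 3 vehicle libraries (log2 -0.59, adjusted p = 0.0057). The standard error of Mmp13 was 0.12 in each comparison of 2 groups.

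Mmp3, stromelysin-1, rose with VD3 at day 0 and osteogenic day 7 and was not called at osteogenic day 15 or in adipogenic cells. Day 0 vehicle libraries held 3.21, 2.80 and 3.59 RPKM and VD3 libraries 8.27, 7.97 and 10.6, a 2.80-fold rise (log2 1.24, SE 0.27, adjusted p = 0.0039). The vehicle values lay below the receptor background median of their own libraries (4.17, 3.51 and 4.93 RPKM), whereas VD3 replicate 2, with a background of 0.456 RPKM, held 7.97. With a pseudocount of 0.1 the call was lost (adjusted p = 0.0793). At osteogenic day 7 Mmp3 went from 13.7, 14.2 and 10.3 RPKM to 42.2, 55.0 and 42.2 with VD3, a 3.65-fold rise (log2 1.79, adjusted p = 1.82e-04). Osteogenic day 15 libraries held 15.8, 11.3 and 11.0 RPKM without and 18.5, 17.8 and 23.0 with VD3. These did not overlap, but the difference did not pass the test (adjusted p = 0.755). Adipogenic libraries held 0.29 to 1.63 RPKM in vehicle and 0.43 to 2.46 in VD3, close to their receptor background of 0.495 to 1.30.

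Mmp10, stromelysin-2, was low throughout, and its day 0 values lay below the receptor background median of their library in 6 of 6 libraries. Its group means were 1.98 ± 0.91 RPKM at day 0, 1.47 ± 0.50 at osteogenic day 7, 1.84 ± 0.76 at osteogenic day 15 and 0.277 ± 0.213 in adipogenic vehicle. The VD3 means were 1.32 ± 1.00, 3.28 ± 1.32, 3.12 ± 0.23 and 0.480 ± 0.267 RPKM in the same order. No VD3 effect on Mmp10 passed the test. At osteogenic days 7 and 15 all 3 VD3 libraries were above all 3 vehicle libraries (lowest 1.81 against highest 1.78, and lowest 2.93 against highest 2.48).

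The gelatinases were unlike each other in level. Mmp9, known from osteoclasts and neutrophils, was at 0 to 0.626 RPKM in the 24 libraries and listed at 0 in 2 of them, against 0.0642 to 0.421 RPKM that 3 reads on 1 kilobase would give. Mmp2 held 18.6, 19.2 and 14.6 RPKM at day 0, 26.7, 24.9 and 34.6 at osteogenic day 7, 58.1, 62.3 and 68.7 at osteogenic day 15, and 7.46, 9.77 and 8.68 in adipogenic vehicle, 4 ranges that did not overlap. With VD3 it fell at day 0 to 11.1, 10.9 and 11.8 RPKM (log2 -0.58, SE 0.14, adjusted p = 0.0077), a call lost after median ratio rescaling of the libraries (adjusted p = 0.102). It did not pass the test elsewhere: with VD3 it was at 39.2 ± 9.73 RPKM at osteogenic day 7, 54.8 ± 1.56 at day 15 and 6.04 ± 0.49 in adipogenic medium.

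Mmp14, the membrane-anchored collagenase, was the most abundant of the 7 MMPs in vehicle at day 0 and at both osteogenic times. Vehicle libraries held 119, 124 and 130 RPKM at day 0, 276, 250 and 260 at osteogenic day 7, and 195, 173 and 201 at osteogenic day 15. In adipogenic vehicle it was at 12.9, 14.5 and 13.8 RPKM, less than Mmp13. VD3 means were 141 ± 8.18, 239 ± 9.86, 190 ± 20.4 and 15.6 ± 2.14 RPKM, and no VD3 effect on Mmp14 passed the test. Mmp11, the furin-activated stromelysin, stayed between 9.51 and 16.0 RPKM in all 18 libraries outside adipogenic medium and between 4.70 and 7.70 within it, also with no VD3 effect past the test.

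Among the inhibitors, Timp3 had the largest rise from day 0 to osteogenic vehicle, while Timp1 and Timp2 had larger falls than Timp3 in adipogenic vehicle. Its vehicle libraries held 24.8, 27.8 and 24.2 RPKM at day 0, 178, 194 and 199 at osteogenic day 7, 196, 172 and 160 at osteogenic day 15, and 18.7, 19.5 and 18.7 in adipogenic medium. VD3 lowered it to 106, 96.5 and 105 RPKM at osteogenic day 7 (1.86-fold lower, log2 -0.89, SE 0.087, adjusted p = 3.44e-07) and to 106, 95.4 and 114 at osteogenic day 15 (1.67-fold lower, log2 -0.74, adjusted p = 2.95e-05). In both osteogenic states every VD3 library was below every vehicle library. In adipogenic medium VD3 libraries held 26.6, 24.2 and 24.4 RPKM, all above vehicle, a 1.32-fold rise (log2 0.39, adjusted p = 0.015). That call was lost without adipogenic vehicle replicate 1 (adjusted p = 0.0739) or 3 (0.0696), without adipogenic VD3 replicate 1 (0.105), and after median ratio rescaling (0.316), with plain empirical Bayes (0.0546) or with only the adipogenic libraries in the fit (0.0558). At day 0 the VD3 libraries held 23.0, 19.9 and 22.4 RPKM, which did not pass the test (adjusted p = 0.0845).

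Timp1, a secreted inhibitor of most soluble MMPs, was at 31.8, 39.5 and 22.6 RPKM in day 0 vehicle and at 16.4, 14.7 and 14.9 with VD3. This 2.04-fold fall (log2 -0.95, SE 0.23, adjusted p = 0.0077) did not pass the test after median ratio rescaling (adjusted p = 0.0527). Timp1 was the sum of 2 transcripts, the other members having 1 each. Whether reads shared by the 2 were counted in both is not given. Its level and the TIMP sums below may thus be too high, and the MMP to TIMP ratios too low. Timp1 vehicle means were 59.2 ± 2.55 RPKM at osteogenic day 7, 53.1 ± 13.4 at day 15 and 2.39 ± 0.51 in adipogenic medium, and VD3 means 55.4 ± 7.49, 44.1 ± 9.09 and 1.38 ± 0.95, without a call. Timp2, the inhibitor that also takes part in Mmp2 activation, had vehicle means of 49.9 ± 8.68 RPKM at day 0, 67.1 ± 8.65 and 52.6 ± 5.24 at osteogenic days 7 and 15, and 4.89 ± 1.38 in adipogenic medium. Its VD3 means were 45.6 ± 1.78, 88.3 ± 16.3, 44.9 ± 1.51 and 5.15 ± 0.97 RPKM, and no VD3 effect passed the test. Timp1 and Timp3 lie within introns of Syn1 and Syn3 on the other strand, and whether the counting used strand is not given in the sources used here. Syn1 was at most 0.783 RPKM in its group means, and Syn3 was 5.77 in day 0 vehicle and 0.900 to 3.59 in the other groups.

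**Figure D2:**
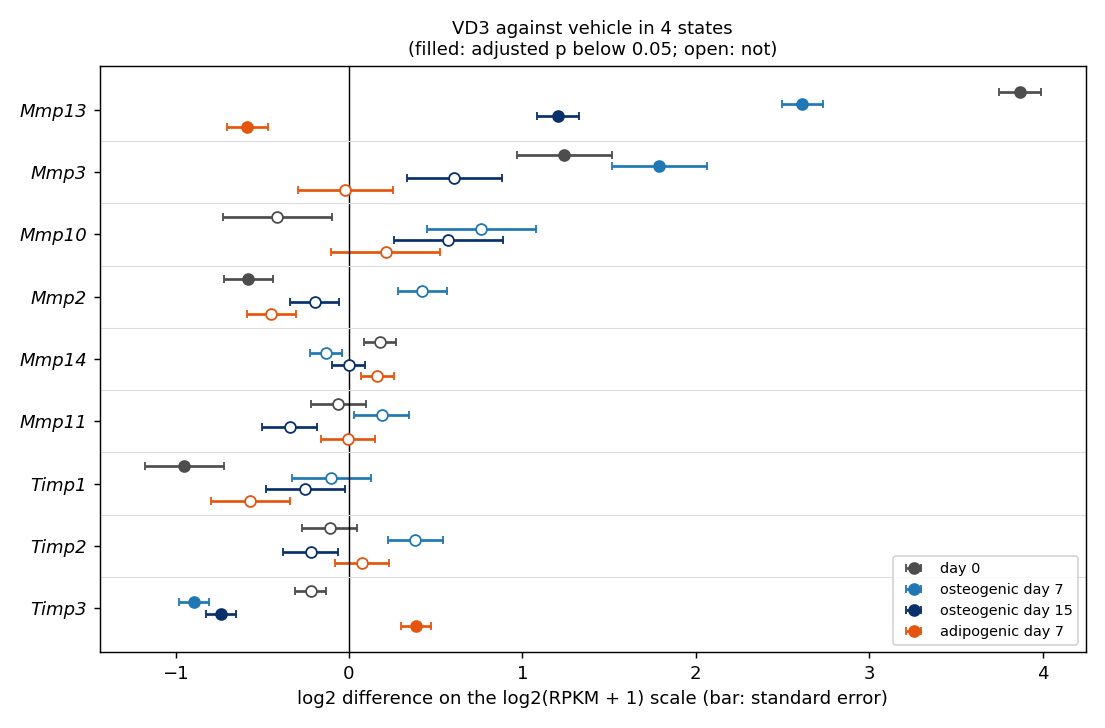
Log2 difference between VD3 and vehicle on the log2(RPKM + 1) scale (horizontal axis, bars are standard errors) for the 9 tested genes in 4 states, filled where the adjusted p is below 0.05. Mmp13 runs from 3.87 at day 0 to -0.59 in adipogenic medium, and Timp3 from -0.89 at osteogenic day 7 to 0.39 in adipogenic medium.

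Counted over the 9 tested members, VD3 raised 2 (Mmp13, Mmp3) and lowered 2 (Mmp2, Timp1) at day 0, where 3.98% of all genes tested rose and 11.0% fell. At osteogenic day 7 it raised 2 (Mmp13, Mmp3) and lowered 1 (Timp3), against 2.91% and 2.35% of all genes. At osteogenic day 15 it raised Mmp13 and lowered Timp3, against 0.526% and 0.246%. In adipogenic medium it raised Timp3 and lowered Mmp13, against 1.51% and 0.574%. The median log2 difference of the 9 members was -0.11, 0.38, -0.20 and -0.0049 in these 4 states, and that of all genes tested was -0.27, 0.067, 0.020 and 0.050. Median ratio rescaling moved the day 0 median of all genes by 0.17 and left 2 members called there, Mmp13 and Mmp3.

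The VD3 effect itself differed between states for 4 members, tested as the difference of the log2 effects. For Mmp13 it was smaller at osteogenic day 7 than at day 0 by 1.25 (log2 -1.25, SE 0.17, limma adjusted p = 1.60e-04) and smaller again at day 15 than at day 7 (log2 -1.41, adjusted p = 2.52e-04). It differed from day 0 by -2.66 at osteogenic day 15 (adjusted p = 2.89e-09) and by -4.46 in adipogenic medium (adjusted p = 1.53e-13), and between adipogenic and osteogenic day 7 by -3.20 (adjusted p = 7.08e-11). These 5 Mmp13 values were past the threshold under each of the 22 alternatives run for each. The differences against day 0 share the day 0 libraries, and those at osteogenic day 7 share its libraries.

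Timp3 went the other way between media, with an effect that was higher in adipogenic than in osteogenic day 7 cells by 1.28 (SE 0.12, adjusted p = 1.42e-06). Against day 0 its effect was lower at osteogenic day 7 (log2 -0.67, adjusted p = 0.0039) and day 15 (log2 -0.52, adjusted p = 0.0228) and higher in adipogenic medium (log2 0.61, adjusted p = 0.0062). Of these, the day 15 difference was lost when other libraries were left out of the fit (adjusted p = 0.0921) and with plain empirical Bayes (0.0558). It was also lost without any 1 of 5 libraries (day 0 vehicle replicates 1 and 3, osteogenic day 15 vehicle replicate 1 and VD3 replicates 1 and 2). The adipogenic difference from day 0 was lost after median ratio rescaling (adjusted p = 0.252). The Mmp3 effect was lower in adipogenic than in osteogenic day 7 cells by 1.81 (log2 -1.81, SE 0.39, adjusted p = 0.014). That call was lost with a pseudocount of 0.1 (adjusted p = 0.243) and with only the libraries compared in the fit (0.0935). The Mmp2 effect was higher at osteogenic day 7 than at day 0 (log2 1.00, SE 0.20, adjusted p = 0.0077). That call was lost after median ratio rescaling (adjusted p = 0.0836) and with only the libraries compared in the fit (0.0804). The Mmp2 effect was lower in adipogenic than in osteogenic day 7 cells (log2 -0.87, adjusted p = 0.0205), a call lost in 8 of its 22 alternatives. Among them were the fits without osteogenic day 7 vehicle replicates 1 and 2 and VD3 replicate 1, adipogenic vehicle replicate 2 and adipogenic VD3 replicate 1.

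Beside these counts, 1.85% of all genes had a higher and 0.702% a lower VD3 effect at osteogenic day 7 than at day 0, where 1 member was higher and 2 were lower. For osteogenic day 15 minus day 0 the shares were 1.64% and 1.20%, with 0 and 2 members. For adipogenic day 7 minus day 0 they were 2.46% and 1.01%, with 1 member each way. For osteogenic day 15 minus day 7 they were 0.0521% and 0.133%, with Mmp13 alone lower. Between adipogenic and osteogenic day 7 they were 0.967% and 0.853%, with Timp3 higher and Mmp13, Mmp3 and Mmp2 lower.

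Without VD3, most members were higher in osteogenic cultures than at day 0, a comparison in which medium, days in culture and the high background of the day 0 libraries cannot be told apart. At day 7, 7 of 9 rose and 0 fell (limma, also 0 lower at an unadjusted p below 0.05), where 13.6% of all genes tested rose and 50.4% fell against day 0. Timp3 rose 7.45-fold (log2 2.85, adjusted p = 5.44e-16), Mmp13 3.50-fold (log2 1.72, adjusted p = 4.64e-10), Mmp3 3.99-fold (log2 1.70, adjusted p = 4.66e-05) and Mmp14 2.11-fold (log2 1.07, SE 0.094, adjusted p = 1.87e-08). Mmp2, Timp1 and Timp2 rose by 0.68, 0.93 and 0.43 on the log2 scale. The Timp2 call was lost without day 0 vehicle replicate 3 (adjusted p = 0.136) or osteogenic day 7 vehicle replicate 3 (0.111), and after quantile normalization (0.147). Mmp10 and Mmp11 did not pass the test. The median of the members was 0.93 and that of all genes -0.46, and median ratio rescaling moved the latter by 0.34. The balance of all genes turned under other settings. With the receptor background subtracted, 8706 of 13668 genes rose and 1456 fell, with a median of 0.67. Quantile normalization gave 5537 higher and 3813 lower. The rise of the members is thus not read against a general fall.

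At day 15 the count against day 0 was 6 higher and 0 lower (0 lower at an unadjusted p also), with 17.5% and 53.4% of all genes. Here too the balance of all genes turned with the receptor background subtracted, to 8532 higher and 1779 lower of 13668. Timp3 (log2 2.73, adjusted p = 3.31e-16), Mmp13 (2.17, adjusted p = 3.61e-12), Mmp2 (1.80, adjusted p = 1.36e-09), Mmp3 (1.70, adjusted p = 3.09e-05), Timp1 (0.75, adjusted p = 0.0062) and Mmp14 (0.60, adjusted p = 1.99e-05) rose. The Timp1 call was lost without day 0 vehicle replicate 3 (adjusted p = 0.0506) and after quantile normalization (0.0598). Timp2, at 52.6 against 49.9 RPKM, did not pass. Among VD3-treated libraries Mmp13 was lower at osteogenic day 15 than at day 0 (log2 -0.50, adjusted p = 0.0024), the reverse of the vehicle comparison, as the 151 and 214 RPKM of the VD3 groups show.

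Between the osteogenic time points, gelatinase and membrane collagenase moved apart. Mmp2 rose 2.19-fold from day 7 to day 15 (log2 1.12, adjusted p = 6.02e-06) while Mmp14 fell (log2 -0.47, adjusted p = 0.0013), and Mmp13 rose by 0.44 (adjusted p = 0.0144). In all 2 members rose and 1 fell, against 6.87% and 6.47% of all genes. The Mmp13 rise was lost without osteogenic day 7 vehicle replicate 3 (limma adjusted p = 0.126) or day 15 vehicle replicate 3 (0.0820). It was also lost after median ratio rescaling (0.140) and with only the libraries compared in the fit (0.0817). Among VD3-treated libraries it became a fall of -0.97 (adjusted p = 3.88e-06).

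**Figure D3:**
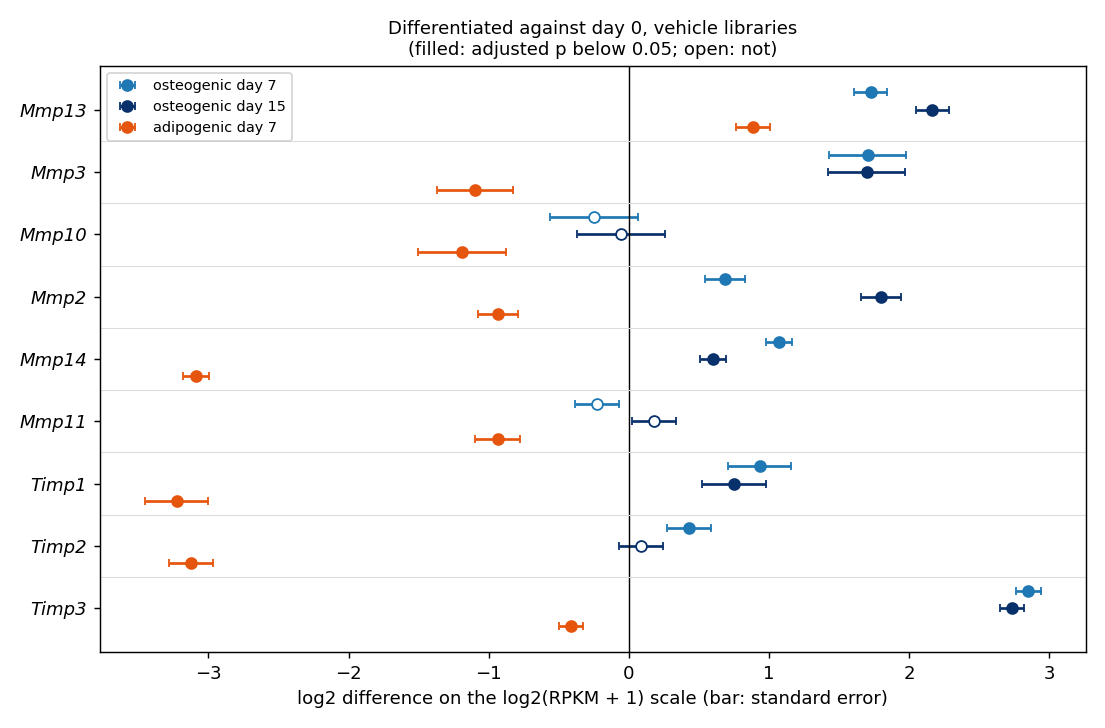
Log2 difference from day 0 in vehicle libraries on the log2(RPKM + 1) scale (horizontal axis, bars are standard errors) for the 9 tested genes, filled where the adjusted p is below 0.05. Timp3 reaches 2.85 and 2.73 in osteogenic medium, while Mmp14, Timp1 and Timp2 lie below -3 in adipogenic medium.

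In adipogenic vehicle against day 0, 8 of 9 members fell and Mmp13 rose, where 65.5% of all genes tested fell and 13.2% rose. The median log2 difference was -1.10 for the members and -0.83 for all genes, so the count of falls is not read as a result about the members. The reference of all genes was itself not stable. With the receptor background subtracted, 5509 of 13668 genes rose and 3143 fell (median 0.28). Quantile normalization gave 5340 higher and 4840 lower (median -0.038). Timp1 fell from 31.3 to 2.39 RPKM, 13.1-fold (log2 -3.23, adjusted p = 1.06e-10), Timp2 fell 10.2-fold (log2 -3.12, SE 0.16, adjusted p = 1.36e-13) and Mmp14 fell 9.05-fold (log2 -3.09, adjusted p = 1.98e-17). Mmp2, Mmp11, Mmp3, Mmp10 and Timp3 fell by 0.93, 0.94, 1.10, 1.19 and 0.41. Mmp13 rose 1.90-fold (log2 0.88, adjusted p = 1.83e-06). Of the falls, 3 did not stand under every setting: subtracting the receptor background turned Mmp3 to 0.46 (adjusted p = 0.168) and Mmp10 to a difference of 0, and median ratio rescaling turned Timp3 to 0.14 (adjusted p = 0.238). Among VD3-treated libraries Mmp13 was lower in adipogenic cells than at day 0 (log2 -3.57, adjusted p = 1.18e-16).

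Set against osteogenic cells, all 9 tested members were lower in adipogenic cells. This held at osteogenic day 7, where 25.4% of all genes fell and 12.4% rose, and at osteogenic day 15, where 26.3% fell and 12.1% rose. Against osteogenic day 7, Timp1 was 24.7-fold lower (log2 -4.16, adjusted p = 1.18e-12), Mmp14 19.1-fold (log2 -4.16, adjusted p = 7.00e-20), Timp2 13.7-fold (log2 -3.55, adjusted p = 1.05e-14) and Timp3 10.1-fold (log2 -3.26, adjusted p = 1.37e-18). The median of the 9 members was -2.80 there and -2.79 against osteogenic day 15, with 0.024 and 0.0052 for all genes. Mmp13 was among the least changed, 1.84-fold lower than at osteogenic day 7 (log2 -0.84, adjusted p = 3.53e-06) and 2.49-fold lower than at day 15 (log2 -1.28, adjusted p = 5.40e-09). Mmp10, the lowest of the 9, lost its call against osteogenic day 7 without vehicle replicate 1 (adjusted p = 0.0765) or 2 (0.0726) of osteogenic day 7 or replicate 2 (0.0518) or 3 (0.0796) of adipogenic day 7.

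The members' summed RNA gives the proportions between them, as a description without a test. The 7 MMPs summed to 173 ± 2.91 RPKM in day 0 vehicle and 388 ± 24.9 with VD3, and the 3 TIMPs to 107 ± 18.9 and 82.8 ± 0.66. Their ratio was 1.66 ± 0.31 without and 4.70 ± 0.33 with VD3. At osteogenic day 7 the ratio was 1.15 ± 0.10 and 2.60 ± 0.20, and at osteogenic day 15 it was 1.24 ± 0.20 and 2.23 ± 0.29. In adipogenic cells it was 2.13 ± 0.018 in vehicle and 1.47 ± 0.18 with VD3. The libraries of the 2 treatments did not overlap in any state, and the direction was up in 3 states and down in adipogenic medium. Mmp14 made up 71.8% of the MMP sum in day 0 vehicle and 72.1% at osteogenic day 7, whereas Mmp13 made up 7.91% and 13.2% there and 55.1% and 46.6% with VD3. In adipogenic vehicle Mmp13 was 46.8% of a sum of 55.9 RPKM. Timp3 was 24.3% of the TIMP sum in day 0 vehicle, 60.2% and 62.6% at osteogenic days 7 and 15 and 72.4% in adipogenic vehicle.

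**Figure D4:**
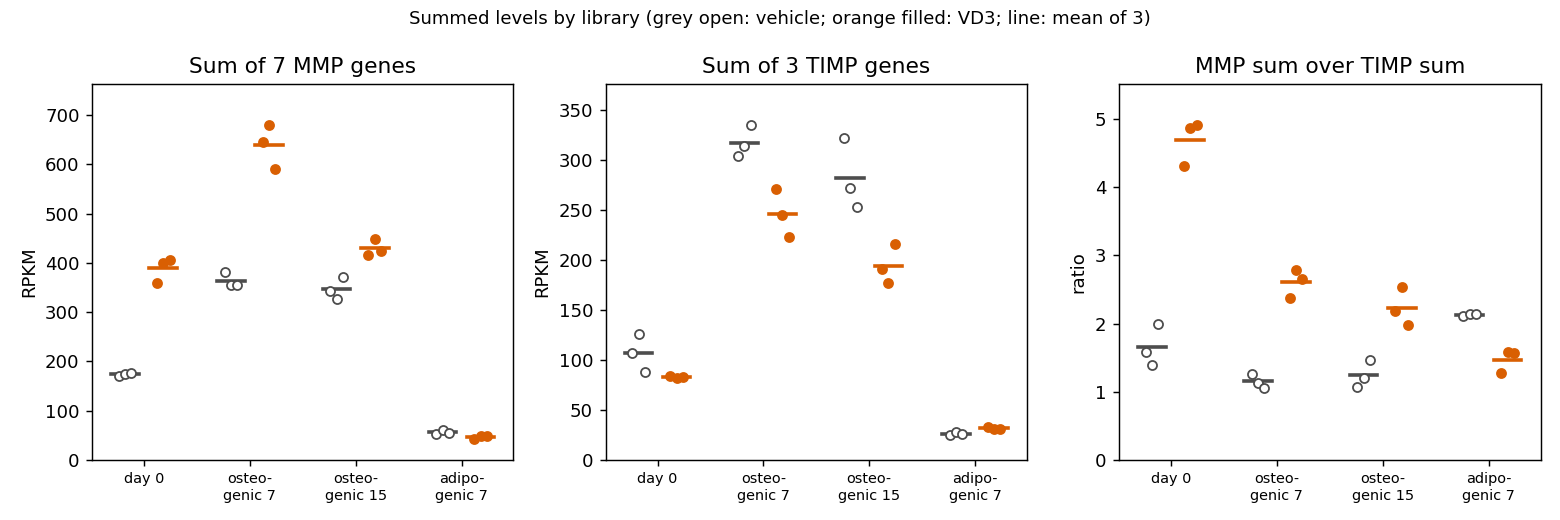
Sum of the 7 MMP genes, sum of the 3 TIMP genes (both in RPKM) and their ratio (vertical axes, from 0) in each library of the 4 states; open grey points are vehicle, filled orange points VD3 and lines the mean of 3. The ratio with VD3 lies above vehicle at day 0 and both osteogenic times and below it in adipogenic cells.

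Over the 24 libraries, Mmp14, Timp2 and Timp1 varied together (Pearson r of log2 values 0.980 for Mmp14 and Timp2, 0.963 for Mmp14 and Timp1, 0.948 for Timp1 and Timp2), and Mmp3 and Mmp13 had r = 0.826. These libraries share 4 states and 1 cell source, so the values are descriptions. Among 8398 genes searched, the 3 most like Mmp13 were Scamp1 (r = 0.936), Dusp6 (0.925) and Vegfa (0.910), and those most like Mmp3 were Vav3 (0.968), Pcdh7 (0.956) and Dio2 (0.956). For Timp3 they were Slc41a2 (0.976), Cgref1 (0.973) and Nt5e (0.970), and for Mmp14 they were Apaf1 (0.992), Aldh1a2 (0.991) and Ak1 (0.990).

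Of 17 other MMP and TIMP genes, 13 were tested. With VD3 at day 0, 1 was called higher and 6 lower. VD3 raised 1 and lowered 0 at osteogenic day 7, changed 0 at osteogenic day 15, and raised 1 and lowered 0 in adipogenic medium. By limma at an unadjusted p below 0.05, 0 were lower at osteogenic day 7, 1 higher and 0 lower at osteogenic day 15 and 1 lower in adipogenic medium. Of all genes tested, 3.98% rose and 11.0% fell at day 0, 2.91% and 2.35% at osteogenic day 7, 0.526% and 0.246% at osteogenic day 15, and 1.51% and 0.574% in adipogenic medium. At day 0 that balance turned with median ratio rescaling, from 840 higher and 2328 lower to 1191 and 798. The median log2 difference of the 13 was -0.64, 0.21, 0.095 and 0.13 in these states. Of the 17, 4 had a mean below 1 RPKM in day 0 vehicle and 13 in osteogenic day 7 vehicle. Low genes of this list could thus pass the filter through the day 0 libraries with high background. Day 0 VD3 replicate 2 had a background of only 0.456 RPKM. For such low genes, an effect of VD3 and a difference in background cannot be told apart at day 0. The gene raised in each was Mmp16, which encodes a membrane-type MMP: it went from 4.68 ± 0.43 to 8.97 ± 1.48 RPKM at day 0, from 8.06 ± 0.43 to 15.6 ± 0.17 at osteogenic day 7 and from 3.46 ± 0.14 to 5.43 ± 0.59 in adipogenic medium (adjusted p = 7.29e-06, 3.98e-06 and 0.0035). At osteogenic day 15 it was at 17.1 ± 1.46 and 20.8 ± 0.40 RPKM, without a call. Without VD3, 4 of the 13 were higher and 2 lower in adipogenic than in osteogenic day 7 cells, with a median log2 difference of 0.22. Of all genes tested, 12.4% were higher and 25.4% lower there. Against osteogenic day 15 the counts were also 4 and 2, with a median of 0.20 (12.1% and 26.3% of all genes). The vehicle level of Mmp19 was highest in adipogenic cells, at 58.3 ± 3.00 RPKM against 40.1 ± 2.68 at osteogenic day 7 (log2 0.53, adjusted p = 4.30e-04) and 25.6 ± 3.39 at day 0 (log2 1.16, adjusted p = 9.11e-09). Mmp23 was lower in adipogenic cells, at 9.24 ± 1.71 RPKM against 71.5 ± 14.8 at osteogenic day 7 (log2 -2.81, adjusted p = 7.07e-14).

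Of 25 tested genes of proteins that activate or restrain MMPs, 0 rose and 8 fell at day 0, 1 rose and 5 fell at osteogenic day 7, and 0 rose and 4 fell at both osteogenic day 15 and adipogenic day 7 (limma; 1, 0 and 2 rose at an unadjusted p below 0.05 where 0 is given). The shares of all genes that fell were 11.0%, 2.35%, 0.246% and 0.574% in the same order, and most calls of all genes at day 0 were falls before rescaling. The median log2 difference of the list was -0.46, 0.0085, -0.074 and 0.037. Plau, the urokinase that generates plasmin, an activator of MMP precursors, went from 19.9 ± 1.52 to 12.7 ± 0.41 RPKM at day 0, from 35.6 ± 4.43 to 12.5 ± 1.24 at osteogenic day 7, from 19.6 ± 0.37 to 11.8 ± 1.02 at day 15 and from 1.86 ± 0.043 to 0.791 ± 0.073 in adipogenic medium (adjusted p = 1.44e-04, 1.43e-09, 2.14e-04 and 9.89e-05). Thbs2, which encodes a matricellular protein that binds MMP-2 for uptake by cells, fell by 1.23, 0.59, 0.31 and 1.10 on the log2 scale in the same 4 states.

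Among 24 tested ADAM and ADAMTS protease genes, some of whose products Timp3 inhibits, VD3 raised 5 and lowered 4 at day 0, raised 5 and lowered 1 at osteogenic day 7, raised 1 and lowered 0 at osteogenic day 15 (limma, 1 lower at an unadjusted p below 0.05), and raised 2 and lowered 1 in adipogenic medium. The shares of all genes that rose and fell were 3.98% and 11.0%, 2.91% and 2.35%, 0.526% and 0.246%, and 1.51% and 0.574%. The median log2 differences of the list were -0.015, 0.082, -0.046 and 0.061. Adamts1, a protease of proteoglycans, had the same order of directions as Mmp13 in differentiated cells: it rose from 120 ± 2.40 to 255 ± 47.9 RPKM at osteogenic day 7 and from 94.3 ± 7.28 to 145 ± 14.0 at day 15, and fell from 77.1 ± 3.74 to 39.0 ± 2.88 in adipogenic medium (adjusted p = 3.44e-07, 0.0022 and 2.04e-06). At day 0 it was at 58.0 ± 3.76 and 57.6 ± 2.79 RPKM, without a call. Its VD3 effect was lower in adipogenic than in osteogenic day 7 cells by 2.03 (log2 -2.03, SE 0.15, adjusted p = 2.54e-08). The list did not share this turn. The 2 genes raised in adipogenic medium were Adamts14 and Adamts2 (log2 0.66 and 0.55). Both also rose at day 0 and at osteogenic day 7.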

How the data were processed

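RNA depleted of ribosomal RNA was made into directional libraries, per the labels' protocols, and aligned to mm9 with TopHat (version not given), per the submitters' processing notes. The quantifier and annotation are not given in the sources used here. The authors deposited RPKM values for 30795 transcripts in each of 24 libraries. Transcripts were summed by symbol, and 25 symbols turned into dates (40 rows) were left out, leaving 25385 genes. Depth (7.13 to 46.8 M reads) was estimated from steps between low values, of which 93.3 to 98.7% lay within 0.1 of a whole read. Replicates correlated at 0.926 to 0.993, and 0 pairs were identical.

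The 21097 genes that reached 1 RPKM in 3 or more libraries were fitted on log2(RPKM + 1) by limma (version 3.58.1, R version 4.3.3), with a mean for each of the 8 groups, a trended and robust empirical Bayes step and all 24 libraries, in 15 comparisons, each adjusted by Benjamini-Hochberg with a threshold of 0.05. The test was tried on simulated data. Summaries were made with pandas 2.3.3 and numpy 2.4.6, and figures with matplotlib 3.10.9, under Python 3.11.15. Named are all 10 members, the 3 genes most like a member by Pearson r among genes with a group mean of at least 5 RPKM, and called genes of the lists; which of the latter are printed was chosen after their values were seen. The members and lists were chosen with earlier results of these data known. Alternatives were other pseudocounts, filters, scalings, transcript and background treatments, empirical Bayes options, sample choices and leaving out each library in turn.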

Additional observations from a re-analysis of the deposited data

Results flagged for a closer look

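In 12 cases the VD3 effect on a member differed between 2 states past the adjusted threshold of limma's test of the difference itself (log2 values, second state subtracted from the first). For Mmp13 the differences were -1.254 (osteogenic day 7 minus day 0), -2.662 (osteogenic day 15 minus day 0), -4.455 (adipogenic day 7 minus day 0), -1.408 (osteogenic day 15 minus day 7) and -3.201 (adipogenic minus osteogenic day 7). For Timp3 they were -0.670 (osteogenic day 7 minus day 0), -0.516 (osteogenic day 15 minus day 0), 0.607 (adipogenic day 7 minus day 0) and 1.277 (adipogenic minus osteogenic day 7). The Mmp2 effect differed by 1.005 between osteogenic day 7 and day 0 and by -0.872 between adipogenic and osteogenic day 7, and the Mmp3 effect by -1.810 between adipogenic and osteogenic day 7. Several of these differences share libraries and are not independent of each other.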

How the results depend on the processing

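Of 66 called results for single members, 1190 values were recomputed: 1132 kept their call, 47 lost it and 11 changed sign. Under settings that kept all libraries compared or used the VD3-treated ones, the counts of members called moved by over 1.5 times as follows. VD3 at day 0 had 2 after median ratio rescaling (4 as reported). VD3 in adipogenic medium had 1 after median ratio rescaling, with plain empirical Bayes and when the fit held no other libraries than those compared (2 as reported). The difference between osteogenic day 15 and day 0 had 1 with plain empirical Bayes and with only the libraries compared (2 as reported), that between adipogenic day 7 and day 0 had 1 after median ratio rescaling (2 as reported), and that between adipogenic and osteogenic day 7 had 2 with only the libraries compared (4 as reported). Osteogenic day 15 against day 7 had 5 among VD3-treated libraries (3 as reported). Leaving out 1 library at a time gave 4 to 5 for VD3 at day 0, 3 to 4 at osteogenic day 7, 2 at osteogenic day 15 and 1 to 3 in adipogenic medium; 6 to 7, 5 to 6 and 9 for osteogenic day 7, day 15 and adipogenic day 7 against day 0; 2 to 4 between osteogenic times; 8 to 9 and 9 for adipogenic against osteogenic days 7 and 15; and, for differences of VD3 effects, 3 and 1 to 2 (osteogenic days 7 and 15 minus day 0), 2 to 3 (adipogenic minus day 0), 1 (osteogenic day 15 minus 7) and 3 to 4 (adipogenic minus osteogenic day 7).

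Signs changed for Timp3 in adipogenic cells against day 0 (0.14 after median ratio rescaling, 0.19 among VD3-treated libraries, 0.31 when day 0 was VD3 replicate 2 alone), for Mmp3 there (0.029 after quantile normalization, 0.46 with the receptor background subtracted), for Mmp10 there (0.15 with the lone library) and for Mmp13 among VD3-treated libraries: -0.50 at osteogenic day 15 and -3.57 in adipogenic cells against day 0 (-0.53 and -3.61 with the lone library) and -0.97 between osteogenic times. The cause was not tested for rescaling. For the lone library the spread is taken from the other groups. The filter at 5 RPKM did not test Mmp10. Median ratio rescaling turned the calls among all genes at day 0 with VD3 from 840 higher and 2328 lower to 1191 and 798. Depth and background limit what can be said of Mmp9, Mmp10 and, at day 0 and in adipogenic cells, Mmp3.

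With the replicate number as a block, 66 of 66 called results kept their call, and VD3 at day 0 again had 4 members called. The labels do not say whether the numbers pair the samples. In 0 of the 10 comparisons of 2 groups did all 3 pairs of deviations correlate above 0.1, and 2 pairs did for VD3 at day 0. Depth and background also enter these deviations, so they cannot decide whether samples were paired.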

Other observations

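Matrix proteins that MMPs can cut, 25 of them tested, had calls in both directions with VD3: 7 rose and 8 fell at day 0, 3 and 4 at osteogenic day 7, 1 and 4 at osteogenic day 15, and 3 and 5 in adipogenic medium, with medians of -0.11, -0.039, -0.11 and 0.023. The shares of all genes that rose and fell with VD3 were 3.98% and 11.0%, 2.91% and 2.35%, 0.526% and 0.246%, and 1.51% and 0.574% in these states. Tnc, the gene of tenascin C, fell in all 4 states (log2 -1.71, -1.16, -0.87 and -1.81; limma adjusted p = 3.62e-10, 3.44e-07, 1.04e-04 and 4.99e-10), and Postn, the gene of periostin, also fell in all 4 (log2 -1.54, -0.65, -0.43 and -1.41). Fn1, the gene of fibronectin, rose at osteogenic day 7 from 221 ± 15.3 to 431 ± 43.2 RPKM (adjusted p = 1.30e-04) and at day 0 from 250 ± 21.7 to 343 ± 28.3 RPKM (adjusted p = 0.0371). Spp1, the gene of osteopontin, rose in all 4 states (log2 0.90, 0.99, 0.90 and 0.99).

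Without VD3, the same 25 genes had 17 higher and 4 lower at osteogenic day 7 than at day 0 (13.6% and 50.4% of all genes), 9 higher and 12 lower at osteogenic day 15 than at day 0 (17.5% and 53.4%), 3 higher and 18 lower at osteogenic day 15 than at day 7 (6.87% and 6.47%), and 5 higher and 18 lower in adipogenic than in osteogenic day 7 cells (12.4% and 25.4%). The shares of all genes against day 0 turned to more rises than falls with the receptor background subtracted. Col3a1, a fibrillar collagen, was at 205 ± 7.64 RPKM in day 0, 813 ± 95.6 in osteogenic day 7 and 33.6 ± 0.13 in adipogenic vehicle.

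Of 20 tested AP-1, ETS, NF-kB and RUNX factor genes, VD3 raised 3 and lowered 3 at day 0, raised 5 and lowered 1 at osteogenic day 7, raised 2 and lowered 1 at osteogenic day 15, and raised 1 and lowered 0 in adipogenic medium (limma, 2 lower at an unadjusted p below 0.05). The median log2 differences of the list were -0.12, 0.18, 0.0042 and 0.067. Shares of all genes were those given for the matrix proteins. Runx1 and Runx2 fell at day 0 (log2 -0.42 and -0.61, limma adjusted p = 0.014 and 0.021). The AP-1 gene Junb rose at day 0 and osteogenic day 7 (log2 0.45 and 0.53, adjusted p = 0.0177 and 0.0098). Another AP-1 gene, Fosl2, rose at osteogenic day 7 (log2 0.36, adjusted p = 0.04998). Cebpb, also counted in this list, rose more there (log2 0.97, limma adjusted p = 0.025). A link between these factor genes and the AP-1 letters in the promoters was not tested. Ets2 fell at day 0 and at both osteogenic times (log2 -0.77, -0.60 and -0.44; limma adjusted p = 1.14e-05, 4.73e-04 and 0.034). Ets1 rose in all 4 states, from 25.6 ± 0.21 to 70.2 ± 1.76 RPKM at day 0, 18.6 ± 0.49 to 32.5 ± 1.29 at osteogenic day 7, 13.7 ± 1.34 to 20.1 ± 1.23 at day 15 and 8.74 ± 1.03 to 19.2 ± 1.13 in adipogenic medium (adjusted p = 4.60e-11, 1.42e-06, 0.0011 and 1.59e-08). Etv5 rose at day 0 and at both osteogenic times (log2 0.63, 1.40 and 0.56; adjusted p = 2.97e-04, 9.09e-09 and 0.0083) and was at 3.29 ± 0.23 and 4.28 ± 0.31 RPKM in adipogenic vehicle and VD3, without a call.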
